A study of Mus musculus with 24 samples.

Results

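Complex I of the respiratory chain was followed through its nuclear genes in mouse liver, as every gene whose deposited name starts with Nduf. These were 46 of the 14995 genes in the count table. By role they were 7 core subunits, 9 accessory subunits of the peripheral arm, 20 accessory subunits of the membrane arm (with the acyl carrier protein Ndufab1 counted here), 8 assembly factors named Ndufaf, and 2 other genes, Ndufa4 and Ndufa4l2. Of the 46, 45 had enough counts to be tested. Ndufa4l2, a paralog of Ndufa4, did not, with means of 0.404, 0.417 and 0.343 counts scaled to library size (CPM) in RYGB, WM and Sham livers.

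The 24 liver samples came from a study titled for obese mice, in 3 groups of 8, taken 20 weeks after the operation. RYGB mice had a Roux-en-Y gastric bypass, an operation in which food bypasses most of the stomach and the start of the small intestine. WM mice were held to the weight of the RYGB mice by calorie restriction, and Sham mice had a sham operation. RYGB vs Sham thus asks what the operation and its weight loss change together, and WM vs Sham what weight loss by diet changes. RYGB vs WM asks what separates the operation from weight loss by diet. The sources used here do not give strain, sex, age or diet, or whether WM mice had an operation. If they had none, WM vs Sham also holds the difference made by a sham operation. Each library is numbered for its sample in the labels, which do not otherwise describe the animals. That each sample is a separate mouse is read from these numbers alone. P-values thus measure only the spread between these samples, whether between animals or technical.

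Complex I (NADH:ubiquinone oxidoreductase) takes electrons from NADH, passes them along a chain of iron-sulfur clusters in its peripheral arm to ubiquinone, and pumps protons through its membrane arm. A conserved core does the chemistry, and many accessory subunits surround and stabilise it. Nuclear and mitochondrial genomes both encode subunits, and assembly factors join them in modules without staying in the finished enzyme. In hepatocytes it reoxidises the NADH made by fatty acid oxidation and the citric acid cycle.

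Levels are CPM with library sizes scaled by the trimmed mean of M values (TMM). Libraries were primed at the 3′ end of messenger RNA and hold about 1 fragment per transcript, so CPM was not divided by gene length. Differences are log2 fold changes ± standard error (SE), and rose or fell means an adjusted p under 0.05 in edgeR's quasi-likelihood test, two-sided, with Benjamini-Hochberg adjustment across the 13121 genes tested. Libraries held 13659647 to 22766612 counts. In bulk liver, fewer cells of a type and less RNA per cell cannot be told apart.

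Complex I genes were higher in both RYGB and WM livers than in Sham livers. In RYGB vs Sham, 30 of the 45 tested Nduf genes rose and 1 fell, where 12.7% of all tested genes were called higher and 11.0% lower. The median log2 fold change was 0.74 over the Nduf genes and -0.01 over all tested genes. In WM vs Sham, 35 of 45 rose, against a background of 16.5% called higher and 15.0% lower, with a median of 0.88 over the Nduf genes and -0.01 over all tested genes. In WM vs Sham 0 Nduf genes fell in edgeR, 0 had a negative change with an unadjusted p under 0.05, and 0 fell in DESeq2, limma-voom or limma-trend. Under scaling by library totals 17 rose in RYGB livers and 26 in WM livers. After a correction for GC content and transcript length 20 rose in RYGB livers and 25 in WM livers, and the median over the 36 subunits was 0.49 in RYGB vs Sham, against 0.76 without the correction, and 0.45 in WM vs Sham, against 0.90 without it.

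The 36 subunits, summed per library, gave 6402 to 10139 CPM in RYGB livers, 6782 to 10678 CPM in WM livers and 3581 to 5774 CPM in Sham livers. No RYGB or WM library was as low as the highest Sham library. Summed hepatocyte markers differed too, with medians of 116750.0 CPM in RYGB livers, 83345 CPM in WM livers and 50796 CPM in Sham livers, and their part in the rise was not tested. In RYGB vs Sham, 9 Nduf genes had every RYGB library above every Sham library (3.28% of all tested genes did), and in WM vs Sham 12 had every WM library above every Sham library (3.15% of all tested genes did). In the lower direction 0 Nduf genes were separate in either comparison, against 2.10% of all tested genes in RYGB vs Sham and 2.68% in WM vs Sham. The 9 were Ndufs8, Ndufv2, Ndufa7, Ndufb2, Ndufb4, Ndufb8, Ndufb9, Ndufc1 and Ndufaf6.

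**Figure D1:**
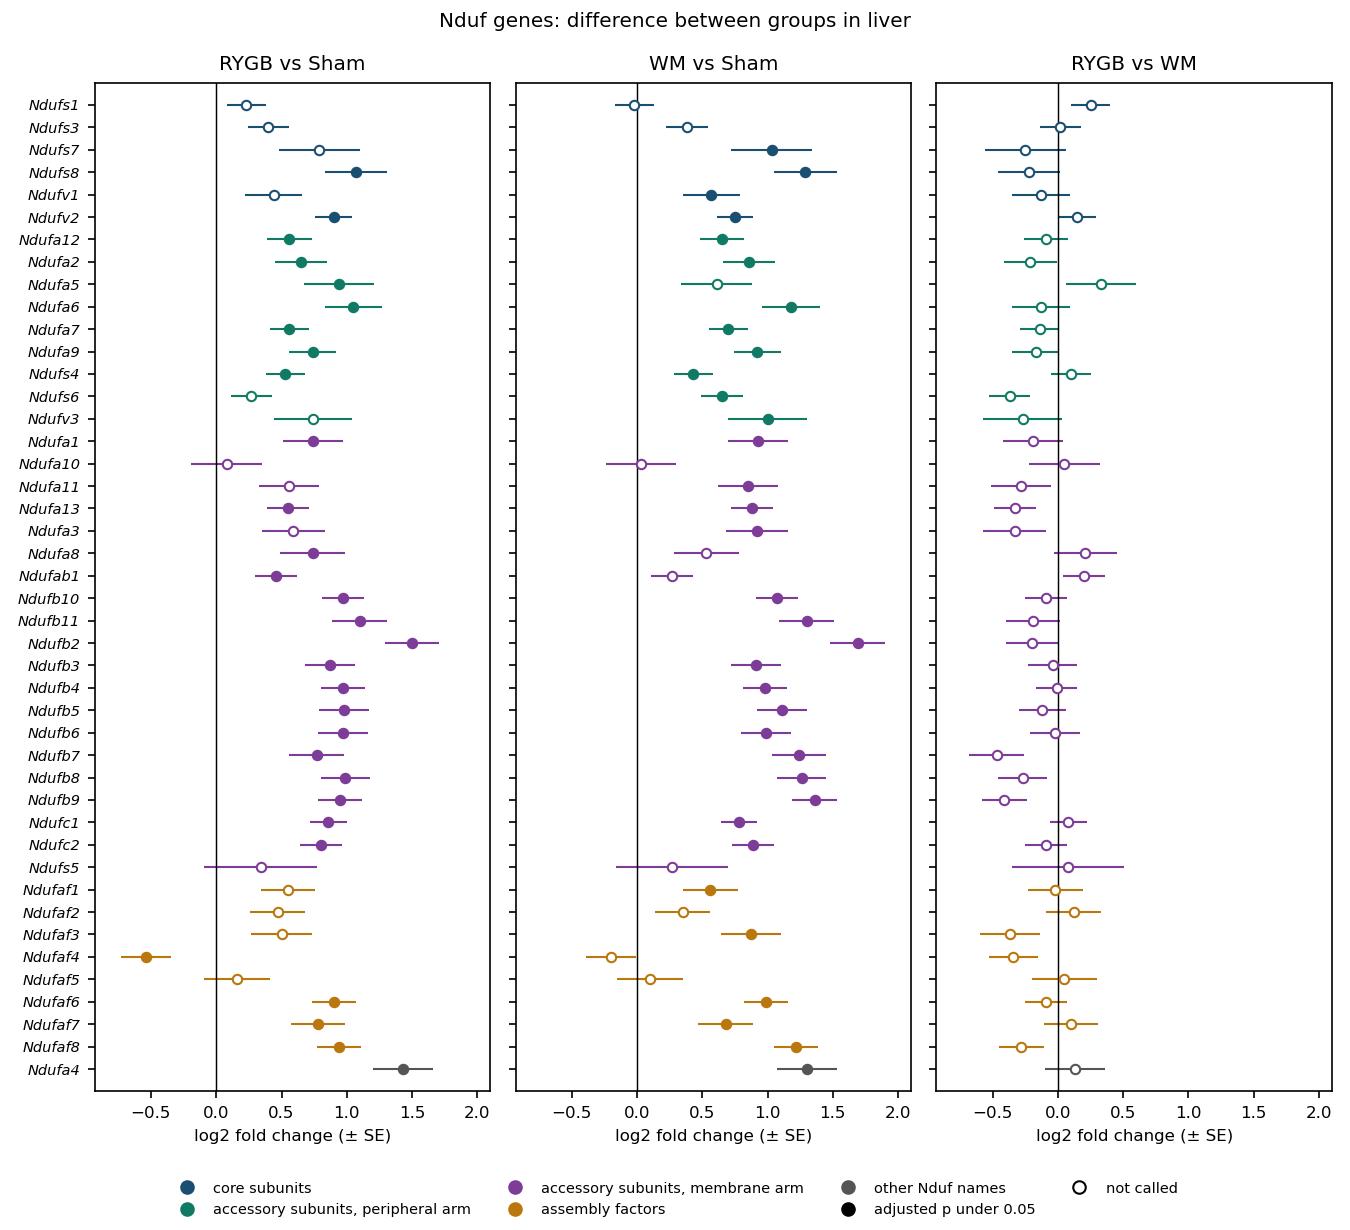
Log2 fold changes (x axis) of 44 of the 45 tested Nduf genes, grouped by role, for RYGB vs Sham, WM vs Sham and RYGB vs WM, with bars of ± 1 SE and filled points where the adjusted p was under 0.05. Nearly all points lie right of 0 in the comparisons with Sham, with Ndufb2 farthest right at 1.5 and 1.69, and no point is filled in RYGB vs WM.

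Promoters of 40 of the 46 genes (32 subunits, 7 assembly factors and Ndufa4) were found in RefSeq (GRCm38.p6) as the 250 bases before to 50 after the annotated start. Parts before the start are shown for 4 genes that stand out below: Ndufb2, with the largest rise, Ndufv2 and Ndufb4, each without overlap between Sham and either other group, and Ndufaf4, the only Nduf gene that fell. Each is written 5′ to 3′ on the strand of the gene, with capitals for a match on either strand to a motif searched. Ndufb2 is chr6:39592365-39592564 (plus strand), Ndufv2 chr17:66101560-66101759 (minus), Ndufb4 chr16:37654454-37654568 (minus) and Ndufaf4 chr4:24897883-24898082 (plus). The Ndufb4 stretch ends 86 bases before the start and the others directly before it.
Ndufb2: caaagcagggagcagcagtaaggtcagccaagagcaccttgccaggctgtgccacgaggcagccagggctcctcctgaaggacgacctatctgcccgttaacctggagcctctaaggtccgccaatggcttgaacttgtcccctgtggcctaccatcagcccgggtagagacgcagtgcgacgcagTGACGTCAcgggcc
Ndufv2: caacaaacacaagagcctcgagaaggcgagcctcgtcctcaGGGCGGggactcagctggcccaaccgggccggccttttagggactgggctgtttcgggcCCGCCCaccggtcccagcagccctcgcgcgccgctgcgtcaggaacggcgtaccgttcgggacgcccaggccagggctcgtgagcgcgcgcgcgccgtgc
Ndufb4: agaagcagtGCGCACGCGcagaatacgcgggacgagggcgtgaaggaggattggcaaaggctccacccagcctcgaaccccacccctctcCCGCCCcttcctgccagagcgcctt
Ndufaf4: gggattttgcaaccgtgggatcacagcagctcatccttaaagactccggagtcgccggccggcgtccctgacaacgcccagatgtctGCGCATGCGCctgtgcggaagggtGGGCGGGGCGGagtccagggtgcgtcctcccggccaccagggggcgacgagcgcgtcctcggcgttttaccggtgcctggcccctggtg

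In the stretches shown, Ndufb2 holds a cAMP response element (TGACGTCA), Ndufv2 holds SP1 motifs (GGGCGG), Ndufb4 holds an NRF1 motif (GCGCANGCG) and an SP1 motif, and Ndufaf4 holds overlapping matches to the NRF1 motif and overlapping matches to the SP1 motif. NRF1, GABP and YY1 are regulators known for acting on nuclear genes of mitochondria. The NRF1 motif was in 8 of 32 subunit promoters (25.0%), against 6.47% of all 27025 promoters and 13.8% of the 9804 promoters of tested genes. The YY1 motif (AAGATGGC) was in 7 of 32 (21.9%), against 2.88% of all promoters and 4.82% of those of tested genes. For the cAMP response element it was 3 of 32 (9.38%), against 1.88% and 3.18%. Other motifs were no more frequent in subunit promoters than in those of tested genes. The SP1 motif was in 46.9% of subunit promoters, against 35.9% of all promoters and 63.1% of those of tested genes. The ETS motif bound by GABP (CCGGAAG) was in 12.5%, against 9.12% and 18.2%. The motif of the estrogen-related receptor ERRα (TCAAGGTCA) was in 0 of 32, against 0.407% and 0.235%. Among the 7 assembly factor promoters, 2 held the NRF1 motif, 2 the ETS motif, 1 the YY1 motif and 6 the SP1 motif. These are matches of letters only.

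The 7 core subunits carry the flavin and the iron-sulfur clusters. Their median log2 fold change was 0.79 in RYGB vs Sham and 0.75 in WM vs Sham, and Ndufs8 and Ndufv2 rose in both comparisons. Ndufv2 had 148 to 222 CPM in RYGB livers (median 174), 137 to 189.9 CPM in WM livers (median 159.9) and 70.04 to 135 CPM in Sham livers (median 95.4). Ndufv2, which holds an iron-sulfur cluster of the NADH-binding module, was higher in every RYGB and every WM library than in any Sham library. It rose by 0.90 ± 0.14 in RYGB livers (edgeR adjusted p = 2.65e-05) and by 0.75 ± 0.14 in WM livers (edgeR adjusted p = 0.000148). The Ndufs8 level ran between 121 and 203 CPM in RYGB livers (median 153), 67.5 and 287 CPM in WM livers (median 178), and 33 and 109.7 CPM in Sham livers (median 82.6). Ndufs8, an iron-sulfur protein on the path to ubiquinone, did not overlap between RYGB and Sham livers, whereas the lowest WM library lay inside the Sham range. Its rise was 1.07 ± 0.24 in RYGB livers (edgeR adjusted p = 0.00185) and 1.29 ± 0.24 in WM livers (edgeR adjusted p = 0.000199).

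Ndufs1, the largest core subunit, was called in neither comparison with Sham. RYGB livers held Ndufs1 at 98.3 to 131 CPM (median 114), WM livers at 69.6 to 155 CPM (median 93.3) and Sham livers at 79.97 to 129 CPM (median 97). The groups overlapped. Its change was 0.23 ± 0.15 in RYGB vs Sham (edgeR adjusted p = 0.262) and -0.02 ± 0.15 in WM vs Sham (edgeR adjusted p = 0.935), with a fold interval (95%) of 0.801 to 1.22 in WM vs Sham. Ndufv1, the NADH- and flavin-binding subunit, rose in WM livers (0.57 ± 0.22, edgeR adjusted p = 0.0448) and had 0.44 ± 0.22 in RYGB vs Sham (edgeR adjusted p = 0.139). Ndufs7, which holds the last iron-sulfur cluster before ubiquinone, had 1.03 ± 0.31 in WM vs Sham, where it rose, and 0.79 ± 0.31 in RYGB vs Sham (edgeR adjusted p = 0.0632). Ndufs3 passed in neither (edgeR adjusted p = 0.074 in RYGB vs Sham and adjusted p = 0.0761 in WM vs Sham).

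Of the 9 accessory subunits of the peripheral arm, 7 rose in RYGB livers (median 0.65) and 8 in WM livers (median 0.70). Among all tested genes 12.7% were called higher in RYGB vs Sham and 16.5% in WM vs Sham. The Ndufa6 level ran between 318 and 931 CPM in RYGB livers (median 418), 348 and 735 CPM in WM livers (median 567), and 176 and 408 CPM in Sham livers (median 219.8). Ndufa6, an LYR-motif protein that binds an acyl carrier protein, had each RYGB and WM library above the Sham median, and the ranges overlapped. The change was 1.05 ± 0.22 in RYGB vs Sham (edgeR adjusted p = 0.000861) and 1.18 ± 0.22 in WM vs Sham (edgeR adjusted p = 0.000168). Ndufa9 had 78 to 124 CPM in RYGB livers (median 94.1), 64 to 169.8 CPM in WM livers (median 107) and 39.8 to 92 CPM in Sham livers (median 57.4). Ndufa9, which sits near the junction of the arms, again overlapped between groups. It rose by 0.74 ± 0.18 in RYGB livers (edgeR adjusted p = 0.00335) and by 0.92 ± 0.18 in WM livers (edgeR adjusted p = 0.000313). The call in RYGB vs Sham ended for Ndufa6 after correction for GC content and transcript length (0.65, edgeR adjusted p = 0.0551) and for Ndufa9 under scaling by library totals (0.42, edgeR adjusted p = 0.0544).

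The peripheral subunits not called in 1 of these comparisons were Ndufs6, Ndufv3 and Ndufa5. RYGB livers held Ndufs6 at 194 to 286 CPM (median 229), WM livers at 219 to 399 CPM (median 312) and Sham livers at 115 to 247 CPM (median 205). Ndufs6, a zinc-binding subunit, was high in WM livers, with a rise of 0.65 ± 0.16 (edgeR adjusted p = 0.00322), against 0.27 ± 0.16 in RYGB vs Sham (edgeR adjusted p = 0.232). A processed pseudogene named Ndufs6b was counted as a separate gene, at a mean under 1 CPM in each group. Its likeness to Ndufs6 was not examined, and reads of Ndufs6 could be split with it. Ndufa5 had 98.8 to 360.3 CPM in RYGB livers (median 178), 97.1 to 262 CPM in WM livers (median 144) and 64.6 to 169 CPM in Sham livers (median 96.3). Ndufa5 had its highest libraries in RYGB livers, with 0.94 ± 0.27 in RYGB vs Sham (edgeR adjusted p = 0.0119) and 0.61 ± 0.27 in WM vs Sham (edgeR adjusted p = 0.0838). Ndufv3 had 0.74 ± 0.30 in RYGB vs Sham (edgeR adjusted p = 0.071) and rose by 1.00 ± 0.30 in WM livers.

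Of the subunit classes, the membrane arm had the highest median in both comparisons with Sham. Of its 20 accessory subunits 16 rose in RYGB livers (median 0.83) and 16 in WM livers (median 0.93). The shares of all tested genes called higher were 12.7% in RYGB vs Sham and 16.5% in WM vs Sham. Longest transcripts had a median of 913 bp for these membrane-arm subunits, against 1141 bp for the peripheral arm and 1661 bp for the core. The part of length in this order was not tested. RYGB livers held Ndufb2 at 256 to 604 CPM (median 296), WM livers at 216 to 527 CPM (median 402) and Sham livers at 82.5 to 183 CPM (median 110.0). Ndufb2, a small subunit of the distal membrane arm, whose upstream sequence is printed above, had the largest change of any Nduf gene, 1.5 ± 0.21 in RYGB vs Sham (edgeR adjusted p = 5.67e-06) and 1.69 ± 0.21 in WM vs Sham (edgeR adjusted p = 5.88e-07). All RYGB and WM libraries lay above all Sham libraries. As folds these were 2.82 (95% interval 2.11 to 3.78) and 3.24 (2.42 to 4.34). Ndufb9 had 397 to 700.5 CPM in RYGB livers (median 506), 474 to 920.1 CPM in WM livers (median 677) and 194 to 364 CPM in Sham livers (median 264). Ndufb9, another LYR-motif protein, also had no overlap of RYGB or WM livers with Sham livers. It rose by 0.95 ± 0.17 in RYGB livers (edgeR adjusted p = 0.000157) and by 1.36 ± 0.17 in WM livers (edgeR adjusted p = 8.81e-07).

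The Ndufb10 level ran between 118 and 245 CPM in RYGB livers (median 227), 166 and 284 CPM in WM livers (median 205), and 81.5 and 125 CPM in Sham livers (median 101). Ndufb10, a cysteine-rich subunit, was separate between WM and Sham livers and overlapped slightly between RYGB and Sham livers. Its rise was 0.97 ± 0.16 in RYGB livers (edgeR adjusted p = 6.54e-05) and 1.07 ± 0.16 in WM livers (edgeR adjusted p = 1.34e-05). RYGB livers held Ndufb4 at 138 to 267 CPM (median 193), WM livers at 143 to 280.1 CPM (median 189.7) and Sham livers at 83.8 to 127 CPM (median 95.3). Ndufb4 was nearly the same in RYGB and WM livers and about 2-fold lower in Sham livers, with folds of 1.96 in RYGB vs Sham and 1.97 in WM vs Sham (edgeR adjusted p = 8.99e-05 and 5.33e-05). Ndufb6 had folds of 1.96 in RYGB vs Sham and 1.99 in WM vs Sham. Ndufb7, another cysteine-rich subunit, rose by 0.77 ± 0.21 in RYGB livers and 1.24 ± 0.21 in WM livers.

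Ndufa10, Ndufs5, Ndufa3 and Ndufa11 were the membrane-arm subunits not called in RYGB vs Sham. Ndufa10 had 174 to 395 CPM in RYGB livers (median 253), 98.8 to 540.5 CPM in WM livers (median 236) and 90.7 to 400.3 CPM in Sham livers (median 272). Ndufa10, which resembles a nucleoside kinase, was spread widely in all groups, with 0.08 ± 0.27 in RYGB vs Sham (edgeR adjusted p = 0.866) and 0.03 ± 0.27 in WM vs Sham (edgeR adjusted p = 0.953), and its sign turned in both comparisons under library totals and after the GC and length correction. RYGB livers held Ndufs5 at 0.826 to 4.39 CPM (median 1.69), WM livers at 0.363 to 3.18 CPM (median 1.81) and Sham livers at 0.388 to 2.67 CPM (median 1.21). Ndufs5, a cysteine-rich subunit facing the intermembrane space, was counted far below every other subunit, whose group means ran from 28.8 CPM (Ndufs3 in Sham livers) to 695 CPM (Ndufb8 in WM livers). Its change was 0.34 ± 0.43 in RYGB vs Sham (edgeR adjusted p = 0.603), with a fold interval of 0.691 to 2.33. Ndufa3 and Ndufa11 rose in WM livers (0.92 ± 0.24 and 0.85 ± 0.23) and had 0.59 ± 0.24 and 0.56 ± 0.23 in RYGB vs Sham. In WM vs Sham the membrane-arm subunits not called were Ndufa10, Ndufs5, Ndufa8 and Ndufab1.

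**Figure D2:**
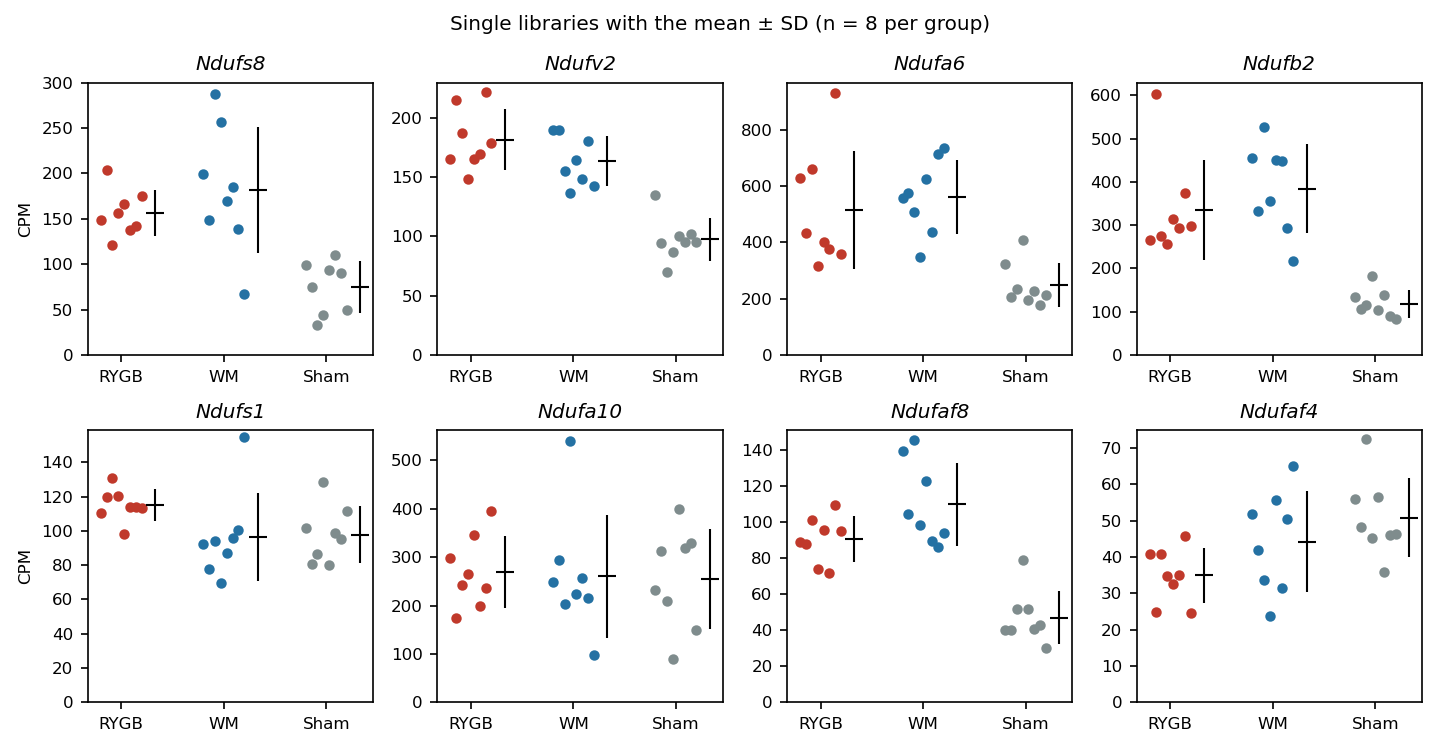
TMM-scaled CPM (y axis) of 8 Nduf genes in each library, as points, with mean ± SD for RYGB, WM and Sham livers (n = 8 each). Ndufb2, Ndufv2 and Ndufs8 are higher in RYGB than in Sham livers with no overlap, Ndufs1 and Ndufa10 overlap in all groups, and Ndufaf4 is lowest in RYGB livers.

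Group means of the assembly factors ran from 6.26 CPM (Ndufaf7 in Sham livers) to 109.9 CPM (Ndufaf8 in WM livers). In RYGB livers 3 of the 8 rose (Ndufaf6, Ndufaf7 and Ndufaf8) and Ndufaf4 fell, with a median of 0.52. Among all tested genes 12.7% were called higher and 11.0% lower in RYGB vs Sham, so that 1 lower of 8 is near the background. In WM livers 5 rose (Ndufaf1, Ndufaf3, Ndufaf6, Ndufaf7 and Ndufaf8), with a median of 0.62, where 16.5% of all tested genes were called higher. The Ndufaf6 level ran between 22.3 and 41.8 CPM in RYGB livers (median 25.8), 19.5 and 43.8 CPM in WM livers (median 29.4), and 11.2 and 18.1 CPM in Sham livers (median 15.6). Ndufaf6, needed for making the module of the mitochondrially encoded ubiquinone-side subunits, had no overlap of RYGB or WM livers with Sham livers. It rose by 0.90 ± 0.17 in RYGB livers (edgeR adjusted p = 0.000199) and by 0.99 ± 0.17 in WM livers (edgeR adjusted p = 4.36e-05). RYGB livers held Ndufaf8 at 72 to 109.6 CPM (median 92.1), WM livers at 86.3 to 145 CPM (median 101) and Sham livers at 30.04 to 78.6 CPM (median 41.8). For Ndufaf8, a partner that stabilises Ndufaf5, 1 Sham library (Sham 2) reached into the RYGB range, while WM and Sham livers did not overlap. It rose by 0.94 ± 0.17 in RYGB livers (edgeR adjusted p = 0.000165) and by 1.22 ± 0.17 in WM livers (edgeR adjusted p = 3.96e-06), and the call in RYGB vs Sham ended after the GC and length correction (0.46, edgeR adjusted p = 0.0665).

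Ndufaf4 had 24.5 to 45.9 CPM in RYGB livers (median 35), 23.8 to 64.9 CPM in WM livers (median 46.1) and 36 to 72.5 CPM in Sham livers (median 47.3). Ndufaf4, which works with Ndufaf3 early in assembly, was lower than the Sham median in every RYGB library, with overlap of the ranges. It fell by 0.54 ± 0.19 on the log2 scale in RYGB livers (edgeR adjusted p = 0.0362) and had -0.20 ± 0.19 in WM vs Sham (edgeR adjusted p = 0.44) and -0.34 ± 0.19 in RYGB vs WM (edgeR adjusted p = 0.529). The call was lost after the GC and length correction (-0.22, edgeR adjusted p = 0.287), without the 3 libraries with pancreatic transcripts (-0.43, edgeR adjusted p = 0.170), and without any 1 of Sham 14, Sham 17, Sham 23, RYGB 11, RYGB 18, RYGB 19 or RYGB 29 (-0.54 to -0.43, edgeR adjusted p = 0.0516 to 0.111). Ndufaf5, which hydroxylates Ndufs7, had 0.16 ± 0.25 in RYGB vs Sham (edgeR adjusted p = 0.69) and 0.10 ± 0.25 in WM vs Sham (edgeR adjusted p = 0.782), at 7.37 ± 3.6, 7.1 ± 1.92 and 6.6 ± 1.56 CPM in RYGB, WM and Sham livers (mean ± SD, n = 8 each). Ndufaf1, a member of the complex that assembles the membrane arm, had 0.55 ± 0.21 in RYGB vs Sham (edgeR adjusted p = 0.0604) and rose by 0.56 ± 0.21 in WM livers (edgeR adjusted p = 0.0433).

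Ndufa4 carries the Nduf name and is now placed in cytochrome c oxidase, complex IV. Ndufa4 had 162 to 532 CPM in RYGB livers (median 244), 129.7 to 365 CPM in WM livers (median 283) and 66.2 to 184 CPM in Sham livers (median 102). Each RYGB and WM library was above the Sham median, and the ranges overlapped. It rose by 1.43 ± 0.23 in RYGB livers (edgeR adjusted p = 5.4e-05) and by 1.30 ± 0.23 in WM livers (edgeR adjusted p = 0.000105).

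RYGB and WM livers were not told apart by any Nduf gene. In edgeR 0 of 45 were called, where 1.06% of all tested genes were called higher and 0.434% lower, 4 had an unadjusted p under 0.05, and 0 were called by DESeq2, limma-voom or limma-trend. No Nduf gene had RYGB and WM livers without overlap, against 0.282% of all tested genes with RYGB livers higher and 0.0762% with RYGB livers lower. The median was -0.12 over the Nduf genes and -0.13 over the 36 subunits, of which 26 were lower in RYGB than in WM livers. Over all 13121 tested genes the median was -0.02, and 6825 were lower. Short transcripts were lower in general, with a median of -0.15 over the shortest genes (median length 725 bp). After the GC and length correction the subunit median relative to all tested genes was -0.03. The 4 with an unadjusted p under 0.05 were Ndufb9 (-0.41 ± 0.17, edgeR adjusted p = 0.306), Ndufs6 (-0.37 ± 0.16), Ndufb7 (-0.47 ± 0.21) and Ndufa13 (-0.33 ± 0.16). These were all lower in RYGB livers. The largest positive value was that of Ndufa5 (0.33 ± 0.27, edgeR adjusted p = 0.762). All 45 fold intervals (95%) lay within 2-fold either way, and 22 lay within 1.5-fold. Their outermost bounds were 0.536 for Ndufb7 and 1.93 for Ndufs5.

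Of the subunits encoded by mitochondrial DNA 6 were tested, and 1 fell in RYGB livers (mt-Nd3) and 1 fell in WM livers (mt-Nd2), where 11.0% of all tested genes were called lower in RYGB vs Sham and 15.0% in WM vs Sham, so that 1 of 6 is near the background. Their medians were -0.04 in RYGB vs Sham and -0.43 in WM vs Sham. Summed, they gave 14123 to 71397 CPM in RYGB livers (median 34058), 11973 to 38088 CPM in WM livers (median 20573) and 11068 to 59653 CPM in Sham livers (median 33801), so that all groups overlapped. These sums were mostly mt-Nd4, mt-Nd1 and mt-Nd2, with group means from 4226 CPM (mt-Nd2 in WM livers) to 23337 CPM (mt-Nd4 in RYGB livers). Group means of mt-Nd3 (4.91 to 11.0 CPM) and mt-Nd6 (15.9 to 30.8 CPM) were far lower. RYGB livers held mt-Nd3 at 1.71 to 7.26 CPM (median 5.49), WM livers at 2.34 to 17 CPM (median 5.16) and Sham livers at 3.38 to 27.2 CPM (median 9.37). For mt-Nd3 the change was -1.16 ± 0.41 in RYGB vs Sham (edgeR adjusted p = 0.0382), and the call was lost under 9 of the alternatives (log2 fold changes of -1.14 to -0.82, edgeR or limma adjusted p = 0.0549 to 0.136), namely limma-trend, leaving out the 3 libraries with pancreatic transcripts, and leaving out any 1 of Sham 3, Sham 14, Sham 16, RYGB 18, RYGB 19, RYGB 22 or RYGB 29. The mt-Nd2 level ran between 2407 and 9098 CPM in RYGB livers (median 6009), 2168 and 5771 CPM in WM livers (median 4259), and 1942 and 13815 CPM in Sham livers (median 8661). The mt-Nd2 change was -0.93 ± 0.31 in WM vs Sham (edgeR adjusted p = 0.0205) and -0.51 ± 0.30 in RYGB vs Sham (edgeR adjusted p = 0.233), where it was called under library totals (-0.82, edgeR adjusted p = 0.0304).

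**Figure D3:**
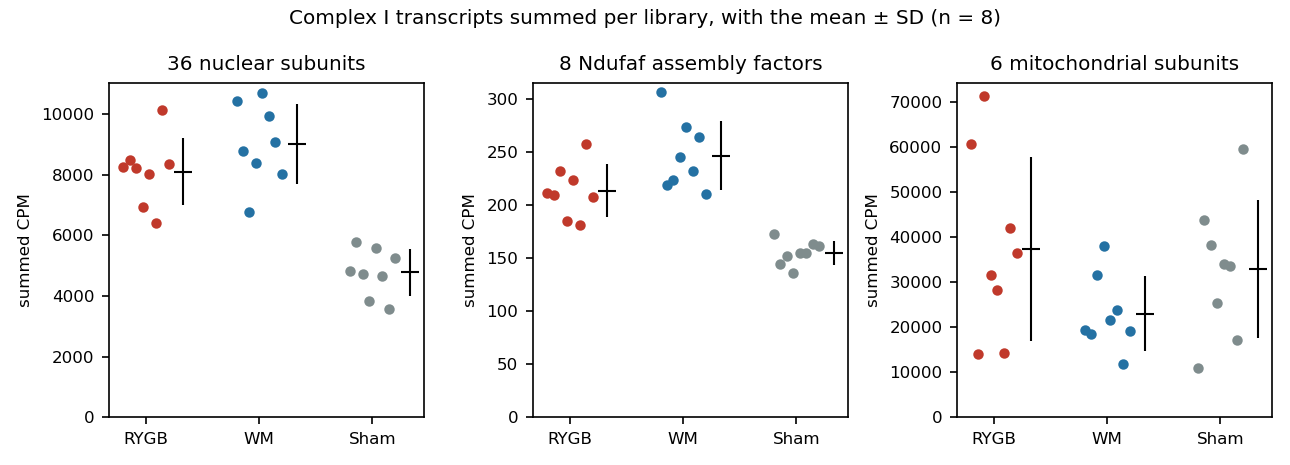
Summed CPM (y axis) in each library, as points, for the 36 nuclear subunits, the 8 Ndufaf assembly factors and the 6 mitochondrially encoded subunits, with mean ± SD for RYGB, WM and Sham livers (n = 8 each). Nuclear subunits and assembly factors in RYGB and WM livers lie above all Sham libraries, and the mitochondrially encoded subunits overlap in all groups.

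Of 13 tested assembly genes without the Nduf name, 5 rose in RYGB livers (median 0.36) and 6 in WM livers (median 0.41). Among all tested genes 12.7% were called higher in RYGB vs Sham and 16.5% in WM vs Sham. Timmdc1 had 39.5 to 73.6 CPM in RYGB livers (median 57), 37.7 to 72.9 CPM in WM livers (median 55) and 21.3 to 27.7 CPM in Sham livers (median 26.3). Timmdc1, of the membrane-arm assembly complex, had no overlap of RYGB or WM livers with Sham livers and rose by 1.19 ± 0.16 in RYGB livers (edgeR adjusted p = 3.3e-06) and 1.16 ± 0.16 in WM livers (edgeR adjusted p = 2.43e-06). Dmac1, of distal membrane-arm assembly, rose by 0.83 ± 0.17 in RYGB livers and 1.13 ± 0.17 in WM livers, and the RYGB call ended after the GC and length correction (0.38, edgeR adjusted p = 0.0675). Ecsit, of the same complex as Timmdc1, rose by 1.06 ± 0.26 in RYGB livers and 0.93 ± 0.26 in WM livers. Acad9, which also belongs to that complex, had -0.21 ± 0.19 in RYGB vs Sham and -0.35 ± 0.19 in WM vs Sham and was not called in either.

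Most listed genes of complexes III and IV and the ATP synthase also rose, where 12.7% of all tested genes were called higher in RYGB vs Sham and 16.5% in WM vs Sham. Their longest transcripts had medians of 1363 bp for complex III, 737 bp for complex IV and 1697 bp for the ATP synthase, against 3229 bp over all tested genes, and short transcripts were higher in general in both comparisons. Complex II had 4 of 8 genes higher in RYGB livers (median 0.49) and 3 in WM livers (0.48). Its list, unlike those of the other complexes here, also held assembly factors (Sdhaf1 to Sdhaf4). Of its subunits, Sdha, Sdhb and Sdhc rose in RYGB livers, Sdhb and Sdhc rose in WM livers, and Sdhd rose in neither. Sdhb, the iron-sulfur subunit, had 1.14 ± 0.19 in RYGB vs Sham and 1.25 ± 0.19 in WM vs Sham. Sdhaf2, which attaches the flavin of complex II, had 0.69 ± 0.17 in RYGB vs Sham and 0.64 ± 0.17 in WM vs Sham (0.36 in RYGB vs Sham under library totals, edgeR adjusted p = 0.152). Complex III had 6 of 9 higher in RYGB livers (0.76) and 7 in WM livers (0.70), led by Uqcrq (means of 1903, 2104 and 833 CPM in RYGB, WM and Sham livers) and Uqcrh (0.87 ± 0.15 in RYGB vs Sham and 0.99 ± 0.15 in WM vs Sham). Complex IV had 7 of 10 higher in RYGB livers (0.78) and 10 of 10 in WM livers (0.98), with Cox5a at 1.22 ± 0.19 in RYGB vs Sham and 1.21 ± 0.19 in WM vs Sham and Cox7a2 at 1.03 ± 0.20 in RYGB vs Sham and 1.18 ± 0.20 in WM vs Sham. The ATP synthase had 11 of 15 higher in RYGB livers (0.83) and 12 in WM livers (0.92), with Atp5h at 1.43 ± 0.21 in RYGB vs Sham and 1.48 ± 0.21 in WM vs Sham and Atp5k at 1.26 ± 0.19 in RYGB vs Sham and 1.43 ± 0.19 in WM vs Sham. The remaining members of these lists were not called. Both comparisons share the Sham libraries.

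Genes that supply or parallel complex I were also followed. As background, 12.7% of all tested genes were called higher and 11.0% lower in RYGB vs Sham. In WM vs Sham the shares were 16.5% and 15.0%. Of 12 genes of iron-sulfur cluster assembly 6 rose in RYGB livers (median 0.51) and 7 in WM livers (0.67), with Lyrm4, a partner of the cysteine desulfurase Nfs1, at 1.05 ± 0.17 in RYGB vs Sham and 0.98 ± 0.17 in WM vs Sham, and the ferredoxin Fdx2 at 0.74 ± 0.19 in RYGB vs Sham and 1.2 ± 0.19 in WM vs Sham. The RYGB call of Fdx2 ended under library totals (0.39, edgeR adjusted p = 0.149) and after the GC and length correction (0.36, edgeR adjusted p = 0.273). Nfs1 itself had -0.10 ± 0.15 in RYGB vs Sham and -0.04 ± 0.15 in WM vs Sham. Of 7 genes of other routes to ubiquinone 2 rose and 1 fell in RYGB livers, and 3 rose and 2 fell in WM livers (medians 0.30 and 0.44). A count of 1 lower among 7 in RYGB livers is near the background. RYGB livers held Gpd2 at 28.1 to 97.5 CPM (median 65.2), WM livers at 31.9 to 82.6 CPM (median 59) and Sham livers at 86.6 to 209.6 CPM (median 138). Gpd2, the mitochondrial glycerol 3-phosphate dehydrogenase, fell by 1.10 on the log2 scale in RYGB livers (edgeR adjusted p = 0.000453) and by 1.21 in WM livers (edgeR adjusted p = 0.000108). Prodh, the proline dehydrogenase, rose by 1.10 ± 0.27 in RYGB livers (edgeR adjusted p = 0.00347; 0.69 and adjusted p = 0.0664 without the 3 libraries with pancreatic transcripts) and by 1.06 ± 0.27 in WM livers.

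Of 12 regulators of mitochondrial gene expression, Esrra alone rose in both comparisons and Ppargc1a alone fell, in WM livers, with medians of 0.02 in RYGB vs Sham and 0.10 in WM vs Sham. Among all tested genes 12.7% were called higher in RYGB vs Sham, and 16.5% higher and 15.0% lower in WM vs Sham. Thus 1 of 12 does not exceed the background. Esrra had 7.86 to 18.1 CPM in RYGB livers (median 9.86), 8.67 to 31.5 CPM in WM livers (median 15) and 5.61 to 7.96 CPM in Sham livers (median 6.77). Esrra, which encodes the receptor ERRα, rose by 0.75 ± 0.23 in RYGB livers (edgeR adjusted p = 0.0155; 0.40 and adjusted p = 0.177 under library totals) and by 1.35 ± 0.23 in WM livers (edgeR adjusted p = 5.17e-05). The Ppargc1a level ran between 8.78 and 18.7 CPM in RYGB livers (median 12.8), 4.01 and 11.9 CPM in WM livers (median 6.8), and 12.5 and 23 CPM in Sham livers (median 14.2). Ppargc1a, a coactivator of mitochondrial biogenesis, fell by 1.01 on the log2 scale in WM livers (edgeR adjusted p = 0.000422), with -0.24 ± 0.20 in RYGB vs Sham (edgeR adjusted p = 0.406) and 0.77 ± 0.21 in RYGB vs WM (edgeR adjusted p = 0.0522). Tfam, which packages mitochondrial DNA, had 0.44 ± 0.19 in RYGB vs Sham (edgeR adjusted p = 0.0883) and 0.32 ± 0.19 in WM vs Sham (edgeR adjusted p = 0.203). In RYGB vs Sham Tfam was called under limma-voom (0.51, adjusted p = 0.00643), after the GC and length correction (0.62, edgeR adjusted p = 0.00300), with the compared groups fitted alone (0.44, edgeR adjusted p = 0.0483) and with WM 25 left out (0.44, edgeR adjusted p = 0.0307). Nrf1, Gabpa and Yy1 encode factors of some of the motifs above. In that order they had -0.26 ± 0.16, -0.40 ± 0.25 and 0.03 ± 0.17 in RYGB vs Sham. In WM vs Sham they had 0.01 ± 0.16, -0.14 ± 0.25 and 0.10 ± 0.17, and none of these genes was called. Sp1, of the SP1 motif and outside the 12 regulators, fell in RYGB livers (-0.68, edgeR adjusted p = 0.00183). Its longest transcript has 7754 bp, and long transcripts were lower in general in that comparison.

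**Figure D4:**
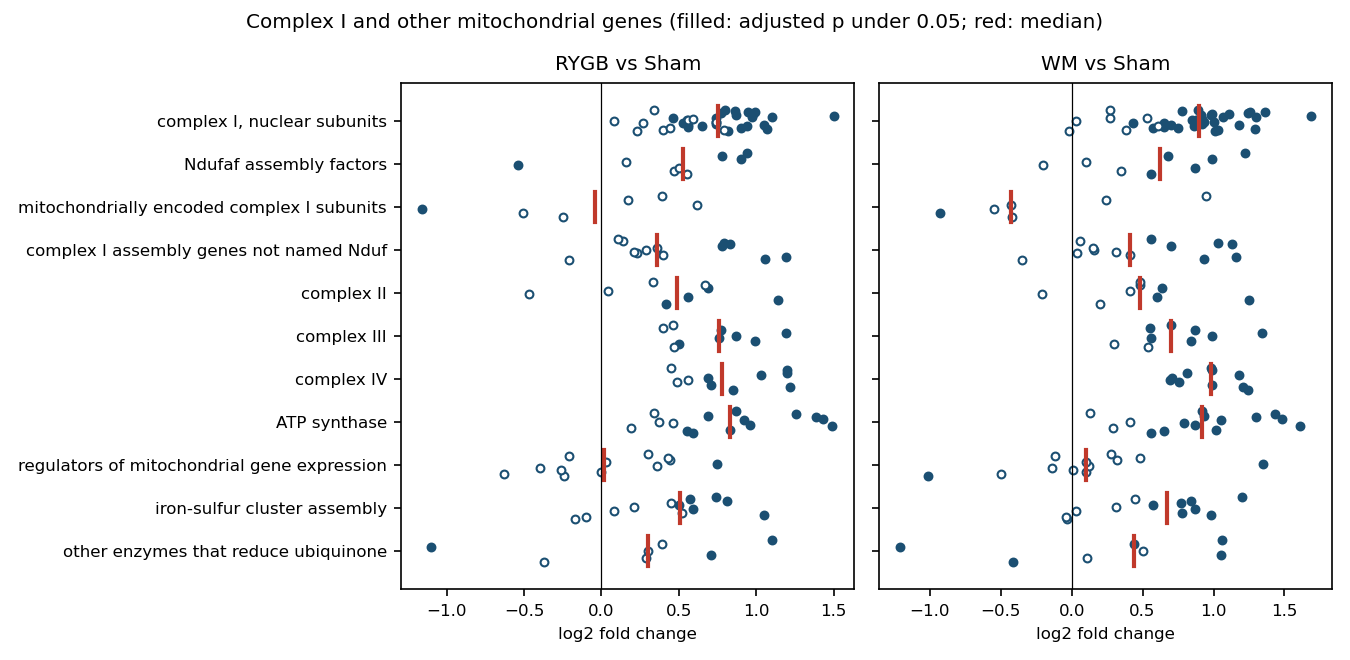
Log2 fold changes (x axis) of single genes in each list, for RYGB vs Sham and WM vs Sham, with filled points where the adjusted p was under 0.05 and a red mark at the median of the list. Subunits of complex I have medians of 0.76 in RYGB vs Sham and 0.90 in WM vs Sham, and the medians of the regulators and the mitochondrially encoded subunits lie between -0.43 and 0.10.

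The subunits differed in how far they varied together from library to library within groups. After removal of group means, the median correlation of log2 CPM over the 24 libraries was 0.335 for the 630 pairs of subunits, and 75.2% of pairs were above 0. These libraries share scaling and the length trend given next. Against the mean of the other subunits, Ndufa3 reached 0.854 and Ndufa13 0.847, while Ndufa6 had 0.00935 and Ndufs1 -0.428. Ndufaf4 had -0.35 against the subunit mean. The 5 genes outside the Nduf names most like the subunit mean were Apoc1, an apolipoprotein (0.919), Smdt1, a regulator of the mitochondrial calcium uniporter (0.911), Atp5h (0.903), Romo1, a small mitochondrial membrane protein (0.898), and Mrpl17, of the mitochondrial ribosome (0.885).

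Transcript length moved with the groups. The slope of log2 CPM on log2 length of the longest annotated transcript was -0.0598 ± 0.0548 in RYGB livers, -0.0998 ± 0.0785 in WM livers and 0.160 ± 0.0485 in Sham livers (mean ± SD, n = 8 each), so that short transcripts were relatively more abundant in RYGB and WM livers. Nduf genes are short, with a median of 1200 bp against 3229 bp over all tested genes. In the shortest of 12 equal bins (median 725 bp) the median over all genes was 0.64 in RYGB vs Sham and 0.81 in WM vs Sham, and in the next bin (median 1353 bp) it was 0.31 in RYGB vs Sham and 0.41 in WM vs Sham. With GC content and length corrected, 20 of 45 Nduf genes rose in RYGB livers (14.2% of all genes were higher) and 25 in WM livers (18.0%), and the median of all tested genes was 0.06 in RYGB vs Sham and 0.08 in WM vs Sham. Relative to it, the subunit median was 0.43 in RYGB vs Sham and 0.37 in WM vs Sham, against 0.77 and 0.91 without the correction. The Nduf genes with a longest annotated transcript above 3229 bp were Ndufb2 (4371 bp) and Ndufb7 (4435 bp), which rose in both comparisons, Ndufab1 (3479 bp), which rose in RYGB livers by 0.46 ± 0.16 and had 0.27 ± 0.16 in WM vs Sham, and Ndufaf4 (3632 bp), which fell in RYGB livers. The annotation does not say which transcript was counted.

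**Figure D5:**
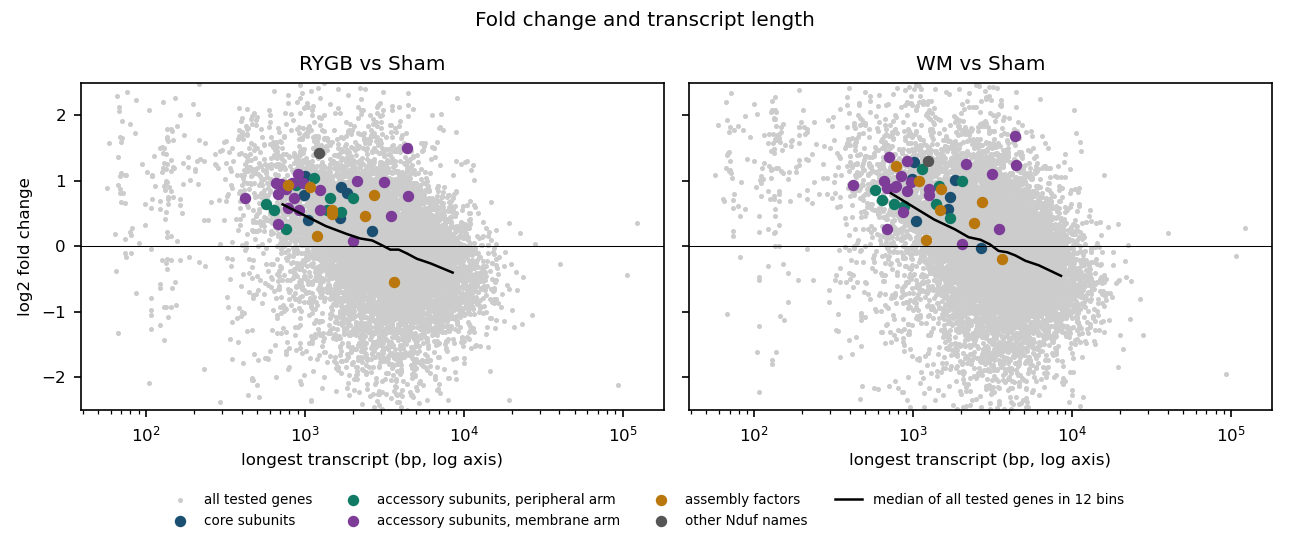
Log2 fold change (y axis) against length of the longest annotated transcript in bp (x axis, log scale), for RYGB vs Sham and WM vs Sham, with Nduf genes over all tested genes and a line through the medians of 12 bins; the most extreme genes lie outside the y axis. The line falls with length, starting at 0.64 in RYGB vs Sham and 0.81 in WM vs Sham for the shortest bin, and most Nduf genes sit in the short bins.

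Scaling by library totals moved the median of all tested genes to -0.36 in RYGB vs Sham and -0.33 in WM vs Sham. Relative to it, the subunit median was 0.80 in RYGB vs Sham and 0.91 in WM vs Sham. With it, 17 Nduf genes rose and 1 fell in RYGB livers (5.75% of all genes were higher and 26.9% lower), and 26 rose in WM livers (7.99% higher and 27.7% lower).

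Cell type markers also moved with the groups. The 5 hepatocyte markers summed to 73896 to 125316 CPM in RYGB livers, 66536 to 116956 CPM in WM livers and 28996 to 66833 CPM in Sham livers. The 5 Kupffer cell markers gave 103 to 598 CPM in RYGB livers, 141 to 421 CPM in WM livers and 38.3 to 194 CPM in Sham livers. The 5 erythroid markers gave 2806 to 5662 CPM in RYGB livers, 1407 to 9955 CPM in WM livers and 748 to 2410.4 CPM in Sham livers. The 5 stellate cell and matrix markers were lower, at 34.9 to 63.8 CPM in RYGB livers, 21.0 to 83.1 CPM in WM livers and 120.3 to 285 CPM in Sham livers. Lymphocyte markers (4 of 5 measured) gave 20.2 to 226 CPM in RYGB livers, 5.73 to 224 CPM in WM livers and 2.98 to 20.7 CPM in Sham livers. The 4 cholangiocyte markers gave 17.5 to 41.1 CPM in RYGB livers, 10.0 to 26.4 CPM in WM livers and 17.8 to 36 CPM in Sham livers. Muscle and brown fat, tissues rich in mitochondria, had 2 of 7 markers measured, at 2.37 to 9.92 CPM in RYGB livers, 3.23 to 15.2 CPM in WM livers and 3.11 to 5.71 CPM in Sham livers. The part of these cell types and of transcript length in the rise of the Nduf genes was not tested, beyond the corrected values above.

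Pancreatic acinar markers (7 of 8 measured) reached 1965 CPM in RYGB 18, 1875 CPM in RYGB 19 and 911 CPM in Sham 17, and at most 17.2 CPM in the other libraries. Without these 3 libraries 27 Nduf genes rose in RYGB livers (9.76% of all genes were higher) and 32 in WM livers (14.7%), and the subunit median was 0.74 in RYGB vs Sham and 0.85 in WM vs Sham.

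Exons of 13 Nduf genes overlap those of another counted gene, in each case on the opposite strand, by up to 530 bp for Ndufb5 and Mrpl47, 257 bp for Ndufb6 and Smim27, and 146 bp for Ndufb2 and Braf. The sources used here do not give the strand setting of the counting, so reads from these partners cannot be told apart. The partner was counted higher than the Nduf gene for 3 of the 13, at mean counts of 7386 for Eef1b2 against 1750.2 for Ndufs1, 1981 for Shmt2 against 6.46 for Ndufa4l2, and 332 for Impdh2 against 255 for Ndufaf3. In that order the longest overlaps were 9, 32 and 48 bp, each shorter than a read of 50 bp. The partners with the overlaps named first were counted lower, at mean counts of 267 for Mrpl47, 326 for Smim27 and 228 for Braf, against 3199 for Ndufb5, 3310.1 for Ndufb6 and 4423 for Ndufb2.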

How the data were processed

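Liver RNA of 24 samples (RYGB, WM and Sham, 8 each) was sequenced from the 3′ end with a QuantSeq kit and 50 bp forward reads, per the labels' protocols. The authors deposited whole-number counts per Ensembl gene, and a normalized signal in which each deposited count is divided by 1 size factor per library (0.749 to 1.52). DESeq2 1.34 and R 4.1.2 are listed in the submitters' processing notes. The aligner, genome build, annotation and strand setting are not given in the labels or file headers. Genes were named as deposited. Lengths, GC content and overlaps came from GENCODE M21 (GRCm38), and promoters from RefSeq (GRCm38.p6).

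The main test used edgeR 4.0.16 (R 4.3.3) on the counts: filterByExpr over the groups (13121 genes), TMM scaling, 1 quasi-likelihood fit over all 24 libraries with no covariate, and Benjamini-Hochberg adjustment over all tested genes, with calls at 0.05. Libraries within a group differed pairwise by chi-square values of at least 28.1 per degree of freedom, so none was counted as a duplicate. The procedure was also run on counts simulated from the fitted model itself, so that run gives no separate support to the calls. Its outcome is not reported here. The simulated counts had the fitted spread of each gene and no length trend, so they cannot show how that trend affects the calls. Counting error is part of the fitted spread.

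Alternatives were DESeq2 1.42.0, RLE scaling, library totals, no filter on low counts, a minimum of 1 CPM in 8 libraries, limma-voom with quality weights (limma 3.58.1), a fit of only the groups compared, limma-trend on log2 of the normalized signal plus 1, a correction for GC content and length (mgcv 1.9.3), leaving out the 3 libraries with pancreatic transcripts, and leaving out each library. Genes named with full values were, per comparison and role, the 2 with the smallest p, members called against the majority, and the 3 with the largest p, and in each other list the 2 with the smallest p in RYGB vs Sham. Others named were chosen after their values were seen. 1 core subunit is counted in the totals and medians and is not reported singly here. The members, lists, motifs and alternatives were chosen with earlier results of these data known, so lists are described by counts and medians, without tests.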

Additional observations from a re-analysis of the deposited data

Results flagged for a closer look

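In groups of 8 libraries, a library was singled out where its gap to the nearest other library exceeded 0.526 of the range of the group. Over 39 named genes in 3 groups, 9 cases met this, and chance alone gives about 1 in 20. Among subunits, Ndufb2 reached 604 CPM in RYGB 11, against 256 to 374 CPM in the other RYGB livers. Ndufs5 reached 4.39 CPM in the same library, against 0.826 to 2.1 CPM. Ndufa10 was at 540.5 CPM in WM 25, against 98.8 to 293 CPM in the other WM livers, and Ndufs1 at 155 CPM in WM 9, against 69.6 to 100.4 CPM. The assembly factor Ndufaf8 was at 78.6 CPM in Sham 2, against 30.0 to 51.7 CPM in the other Sham livers.

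Outside the Nduf genes, Uqcrq of complex III was at 2884 CPM in RYGB 11, against 1548 to 2148 CPM in the other RYGB livers. Sdhaf2 was at 32.0 CPM in WM 13, against 15.6 to 23.2 CPM in the other WM livers. Tfam was high at 72.1 CPM in RYGB 28, against 34.8 to 51.8 CPM in the other RYGB livers, and low at 16.4 CPM in WM 25, against 37.5 to 54.2 CPM in the other WM livers. RYGB 11 gave 3 of the 9 and WM 25 gave 2.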

How the results depend on the processing

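No paired analysis was possible because the groups share no sample numbers and the labels give no pairing. Each library left out in turn gave 28 to 36 Nduf genes that rose and 0 to 1 that fell in RYGB vs Sham, 32 to 36 and 0 in WM vs Sham, and 0 and 0 in RYGB vs WM. Of all tested genes, 11.0% to 13.8% were then higher and 8.55% to 12.6% lower in RYGB vs Sham. These shares were 14.7% to 17.0% and 12.2% to 15.4% in WM vs Sham, and 0.805% to 1.35% and 0.218% to 0.579% in RYGB vs WM. The subunit medians then ran from 0.69 to 0.88 in RYGB vs Sham, 0.84 to 0.94 in WM vs Sham and -0.17 to -0.08 in RYGB vs WM. Under library totals, 17 Nduf genes rose in RYGB vs Sham, and the medians were 0.43 for subunits and 0.21 for Ndufaf genes in RYGB vs Sham, and 0.57 and 0.31 in WM vs Sham. The GC and length correction gave subunit medians of 0.49 in RYGB vs Sham and 0.45 in WM vs Sham. It also left 0 Nduf genes that fell in RYGB vs Sham, as did leaving out the 3 acinar libraries. The cause of these moves was not tested.

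Signs turned for values near 0 that were not called. In RYGB vs Sham, Ndufa10 was -0.25 under library totals, -0.02 without the acinar libraries, -0.08 after the correction, and -0.05 to 0.20 with single libraries left out. Ndufaf5 was -0.19 under library totals, -0.09 under limma-voom, -0.09 after the correction, and -0.06 to 0.27 with single libraries left out, and Ndufs5 was -0.11 after the correction. In WM vs Sham, Ndufa10 was -0.32 under library totals, -0.26 under limma-voom, -0.18 after the correction, -0.01 without the acinar libraries, and -0.22 to 0.15 with single libraries left out. Ndufaf5 was -0.23 under library totals, -0.13 after the correction and -0.01 to 0.19 with single libraries left out, and Ndufs1 was 0.06 under limma-voom, 0.07 after the correction and -0.15 to 0.05 with single libraries left out. In RYGB vs WM, Ndufb4 was 0.00 with no low-count filter, 0.01 under limma-trend, 0.09 after the correction, 0.05 without the acinar libraries and -0.08 to 0.08 with single libraries left out. Ndufb6 was 0.07 after the correction, 0.09 without the acinar libraries and -0.19 to 0.04 with single libraries left out. Ndufaf1 was 0.13 under limma-voom and -0.12 to 0.12 with single libraries left out, and Ndufa4 -0.05 to 0.22. At the CPM of Ndufs5, counting limits what a fold can show.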
